A study of Mus musculus with 12 samples.

Results

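Teneurins, latrophilins and FLRT proteins are 3 families of neuronal surface proteins that bind one another across the synaptic cleft. All 10 mouse genes of these families were taken by symbol from a table of 19775 genes, namely the 4 teneurins Tenm1 to Tenm4, the 3 latrophilins Adgrl1 to Adgrl3 and the 3 FLRT genes Flrt1 to Flrt3, and all 10 had a row. RNA was sequenced from the brains of 12 male C57BL/6N mice at about P120, with 4 mice in each of 3 genotypes at Slc6a20a, a transporter of glycine and proline. WT mice carried 2 intact alleles, HT mice had lost 1 and HM mice had lost both, the lesion being a constitutive deletion of exon 3 in 1 mouse line, with no Cre or transgene named. The study asked whether loss of this transporter alters behaviour in mice, and sequenced brain RNA to look at molecular changes. Tenm3 had been selected by its difference between the mutants and WT in these same mice, and the set was drawn up around it. Levels in HT and HM mice are therefore set against WT as a description, with calls from the fit across all genes only counted beside the share of all genes called, and HM against HT is the contrast that the choice did not use.

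Teneurins are large single-pass membrane proteins with a long extracellular part, known for homophilic matching of synaptic partners and for binding latrophilins. Latrophilins are adhesion G protein-coupled receptors, first known as receptors of the spider toxin alpha-latrotoxin, and they take teneurins and FLRT proteins as ligands. FLRT proteins are leucine-rich repeat membrane proteins that bind latrophilins, act as ligands of UNC5 receptors in axon guidance and cell migration, and have also been linked to FGF receptor signalling.

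Because members of a family are homologous, the sequences that they have in common show how far reads could be shared among them. Over the coding sequence of the longest coding transcript, aligned bases of pairs within a family were 67.4% to 72.6% identical. The longest identical coding runs are printed here in lower case, sense strand 5′ to 3′, from GRCm38, for the pairs with the longest run in each family, and the 27 bases of Tenm2 and Tenm3 are added because they are the longest that Tenm3 has in common with another member.
Tenm2 and Tenm4, 29 bases, in exon 29 of Tenm2 (chr11:36024308-36024336, minus strand) and exon 31 of Tenm4 (chr7:96895232-96895260, plus strand): gtcatctactacgacatcaaccagatcat
Tenm2 and Tenm3, 27 bases, in exon 31 of Tenm2 (chr11:36008498-36008524, minus strand) and exon 29 of Tenm3 (chr8:48228900-48228926, minus strand): catcgagggcaaggacacacactactt
Adgrl1 and Adgrl2, 36 bases, in exon 13 of Adgrl1 (chr8:83933889-83933924, plus strand) and exon 12 of Adgrl2 (chr3:148837690-148837725, minus strand): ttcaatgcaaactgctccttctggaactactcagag
Flrt1 and Flrt2, 18 bases, in exon 2 of Flrt1 (chr19:7096695-7096712, minus strand) and exon 2 of Flrt2 (chr12:95779304-95779321, plus strand): cacctggacgacaactcc
Of all stretches of 31 bases in the transcripts of a member, at most 0.069% were also found in another member. There were 7 of them in Tenm1 and 7 in Tenm4, whose longest common coding run was 20 bases, 6 in Adgrl1 and 6 in Adgrl2, and 0 in the other 6 members. Sharing with genes outside the set was larger and came mostly from transcripts on the opposite strand. It reached 12.16% for Adgrl1, 9.13% for Adgrl3, 8.44% for Tenm1 and 4.41% for Tenm4, and was 0.83% for Tenm3, all of it with the antisense gene Gm19744. The methods of the study do not say whether the libraries mark strand. If they do not, reads of these overlaps cannot be told apart. The overlapping genes that had a row were low, at 6.9 to 76.4 normalized counts on average, and some had no row.

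The promoter of Tenm3 is shown because Tenm3 is the member whose values set the mutants apart from WT. It is the 250 bases before the RefSeq transcription start in GRCm38.p6, chr8:48674691-48674940 on the minus strand, and capitals mark the letters TGACGTCA, the cyclic AMP response element (CRE).
Tenm3 promoter: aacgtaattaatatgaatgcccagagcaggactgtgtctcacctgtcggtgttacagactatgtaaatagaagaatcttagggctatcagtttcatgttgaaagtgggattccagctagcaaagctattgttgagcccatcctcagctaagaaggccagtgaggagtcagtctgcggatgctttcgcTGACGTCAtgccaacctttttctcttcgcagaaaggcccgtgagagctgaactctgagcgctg
These letters, which read the same on both strands, were searched for after the sequence had been read. They were found in 1 of 12 promoters of 9 members and in 1.55% of 32851 mouse promoters of this length. The GC box GGGCGG was in 4 of the 12 promoters (Adgrl1 and Adgrl3) against 32.74% of all. The letters TATAAA of the TATA box were in 3 (Tenm1, Adgrl2 and Adgrl3) against 12.37% of all. Both were searched on both strands, and in Adgrl2 TATAAA lay on the opposite strand only. Flrt1 had no promoter entry. The RefSeq start of Tenm3 lies inside the gene as GENCODE annotates it, as do those of Tenm1, Tenm2 and Adgrl2 among others. Other starts upstream are therefore not covered by these windows.

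In GENCODE M21 on GRCm38, 5 of the 10 genes span more than 500 kb. Tenm2 is the longest at 1229.3 kb (chr11:36006656-37235964), followed by Tenm1 at 901.3 kb (chrX:42527866-43429126), Adgrl3 at 805.0 kb (chr5:81020138-81825133), Tenm4 at 739.8 kb (chr7:96171246-96911093) and Tenm3 at 616.3 kb (chr8:48227682-48843951). The FLRT genes are short, with their coding sequence in few exons. Flrt1 spans 13.7 kb (chr19:7092001-7105729) inside an intron of Macrod1 and Flrt3 20.6 kb (chr2:140650914-140671469) inside an intron of Macrod2, each on the opposite strand to its host, while Flrt2 spans 93.0 kb (chr12:95692226-95785215). Adgrl1 spans 41.9 kb (chr8:83900105-83941954) and Adgrl2 175.0 kb (chr3:148815583-148990555).

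Values were normalized counts, read estimates per gene scaled by the authors for library depth, and summed to 33284951 to 33748623 in a mouse. The depth before scaling is unknown. Slc6a20a averaged 679.3 ± 70.1 normalized counts in WT mice, 345.0 ± 29.1 in HT mice and 64.5 ± 9.9 in HM mice (SD, n = 4 each), in the order of the labels. Markers of neurons, astrocytes, oligodendrocytes, microglia and endothelium were all present. The tissue is labelled whole brain, yet the Purkinje cell gene Pcp2 lay between 5.5 and 26.4 normalized counts in the 12 mice and the granule cell gene Cbln3 between 12.1 and 24.5. Of 7 listed cerebellar markers, Gabra6 had no row. The other 6, Pcp2 and Cbln3 included, summed to 2489.7 to 2893.3 normalized counts in the 12 mice. Others of the list were thus well above Pcp2 and Cbln3. In bulk tissue, fewer cells of a type and less RNA per cell cannot be told apart.

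The latrophilin Adgrl1 was by far the most abundant member. Levels were compared between genes as normalized counts per kb of the longest coding transcript, over the 12 mice. Adgrl1 lay between 2608.9 and 2936.6 normalized counts per kb, Adgrl2 between 560.2 and 619.0 and Adgrl3 between 429.5 and 544.0. The teneurins followed, with Tenm4 at 423.1 ± 31.1 per kb (mean ± SD, n = 12), Tenm3 at 374.1 ± 37.0 and Tenm2 at 329.7 ± 29.1, and Tenm1 was lower at 187.8 ± 26.0. Among FLRT genes Flrt2 reached 301.2 ± 16.8 per kb, Flrt3 215.7 ± 7.2 and Flrt1 179.6 ± 13.2. With all members ranked together by mean, ranges over mice were separate for the neighbours Adgrl1 and Adgrl2, Adgrl2 and Adgrl3, and Flrt2 and Flrt3. They overlapped for every other pair of neighbours in this ranking. When the length of all exons joined was used instead, a choice added after seeing the data, Adgrl1 remained first at 2659.7 per kb, but Adgrl2 fell to 252.4 and Adgrl3 to 188.5, below Tenm3 at 327.4. The order below Adgrl1 thus rested on which transcripts a gene was taken to express.

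**Figure D1:**
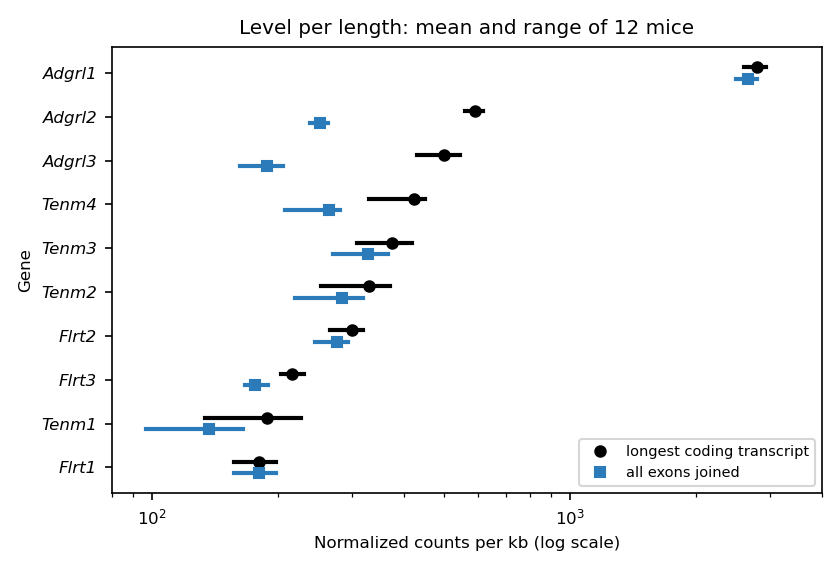
Normalized counts per kb (log axis) of the 10 genes, with symbols for the mean and lines for the range over 12 mice, by the length of the longest coding transcript and by the length of all exons joined. Adgrl1 lies between 2485.6 and 2936.6 normalized counts per kb by either length, and the other 9 genes reach at most 619.0.

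Tenm3 was higher in every mutant mouse than in every WT mouse, and was the only member of the 10 for which this held. In WT replicates 1 to 4 it had 2791.6, 3042.4, 3275.6 and 2768.9 normalized counts, in HT mice 3598.5, 3654.1, 3333.3 and 3452.3, and in HM mice 3330.0, 3616.2, 3614.8 and 3745.3. WT replicate 3, the highest WT mouse, came close to the lowest mutant, HM replicate 1, and HT and HM mice overlapped. HT mice averaged 118.2% and HM mice 120.4% of the WT mean, with log2 fold changes of 0.24 (SE 0.06) and 0.27 (SE 0.06). These values selected the gene and are a description. The column names give animal numbers with 4 different starts, whose meaning the labels do not state. With the start as a block the log2 fold changes were 0.20 in HT and 0.34 in HM mice. There the HM value rests on WT replicates 1 and 2 and HM replicates 3 and 4. WT replicate 1 shares its start with no HT mouse and does not enter the HT value.

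Tenm1, the X-linked teneurin, was the most variable member. It had 1718.7, 2542.7, 2246.5 and 2165.6 normalized counts in WT mice, 2924.1, 2831.6, 2116.7 and 2409.5 in HT mice, and 2289.3, 2525.3, 2642.9 and 2610.6 in HM mice. The lowest value was that of WT replicate 1, and WT replicate 2 was higher than HT replicates 3 and 4, so the genotypes overlapped. Its SD within genotypes was 0.193 on the log2 scale, against 0.051 for Adgrl1 and 0.053 for Flrt3. Its log2 fold change from WT was 0.25 (SE 0.11) in HT and 0.23 (SE 0.09) in HM mice, close in size to that of Tenm3 but with a larger error. Without WT replicate 1 it was 0.14 and 0.12, and with the start of the animal number as a block 0.09 and 0.33.

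Tenm2, the teneurin best known as a ligand of latrophilins, had 2511.5, 3346.7, 3292.6 and 2985.2 normalized counts in WT mice, 3398.1, 3286.4, 3435.4 and 3311.6 in HT mice and 3669.1, 3471.5, 3191.8 and 3303.0 in HM mice. Tenm4, a teneurin known for its part in the myelination of axons, had 4357.7, 5360.2, 5611.1 and 5753.5 in WT mice, 5706.3, 5688.2, 5644.6 and 5916.0 in HT mice and 5739.7, 5714.5, 5516.7 and 5864.4 in HM mice. For both genes WT replicate 1 stood below the other 11 mice, which overlapped. Log2 fold changes from WT were 0.16 (SE 0.07) in HT and 0.18 (SE 0.08) in HM mice for Tenm2, and 0.13 (SE 0.07) and 0.12 (SE 0.07) for Tenm4.

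**Figure D2:**
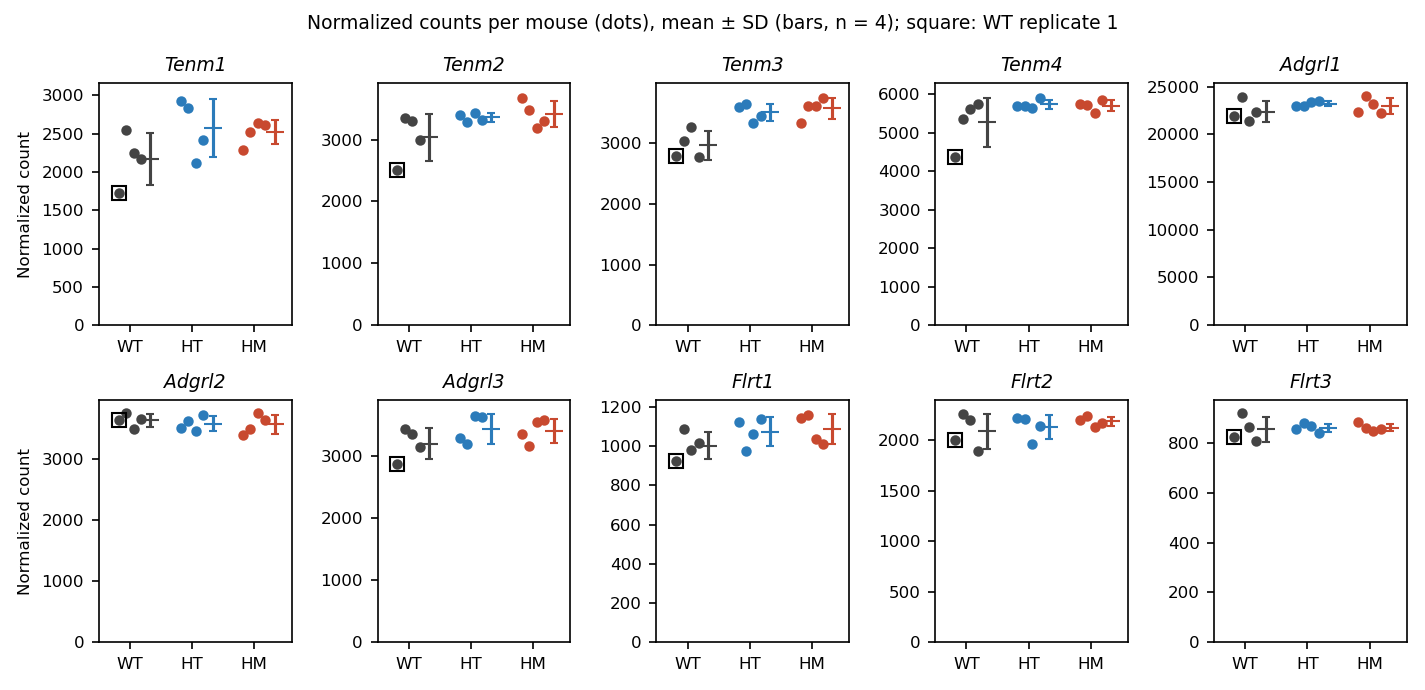
Normalized counts (y axis, from 0) of the 10 genes in each mouse by genotype, with dots for mice, bars for mean ± SD (n = 4) and a square around WT replicate 1. The Tenm3 dots of HT and HM mice all lie above those of WT mice, and WT replicate 1 is the lowest dot for Tenm1, Tenm2, Tenm4, Adgrl3 and Flrt1.

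WT replicate 1 was the lowest of the 12 mice for 5 of the 10 members, namely Tenm1, Tenm2, Tenm4, Adgrl3 and Flrt1. Over all genes tested it was the lowest mouse for 14.5% and the highest for 15.0%, compared with 6.54% to 9.11% for the other mice, so this library stood apart in both directions. Its teneurin values were 0.37 below the mean of the 12 mice on the log2 scale, and those of the other mice lay between 0.12 below and 0.12 above. Without it, the log2 fold changes in HT mice became 0.14 for Tenm1, 0.07 for Tenm2, 0.04 for Tenm4, 0.05 for Adgrl3 and 0.06 for Flrt1. That of Tenm3 was 0.21. In HM mice the log2 fold changes became 0.12 for Tenm1, 0.09 for Tenm2, 0.03 for Tenm4, 0.04 for Adgrl3 and 0.08 for Flrt1. That of Tenm3 was 0.24. The Tenm3 values therefore moved little, and those of the other 3 teneurins were smaller by more than 1.5 times. Since 5 members span over 500 kb, the other 213 genes of at least that span were also examined, a limit chosen after seeing the data. In WT replicate 1 these genes lay 0.11 below their 12-mouse means, and their median log2 fold change was 0.06 in HT and 0.07 in HM mice, or 0.04 and 0.05 without that mouse. The part of this library and of gene length in the values of the members was not tested.

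**Figure D3:**
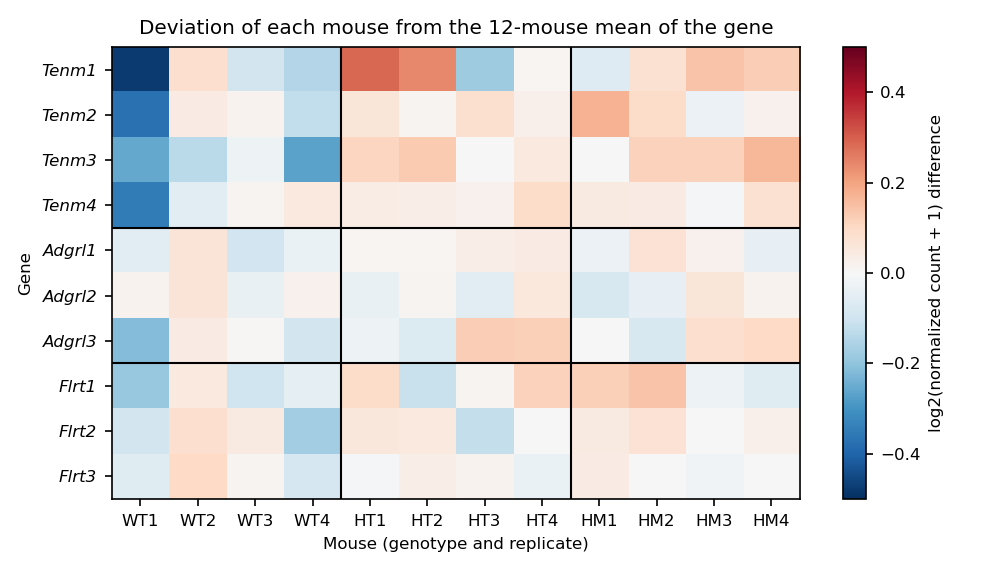
Difference of each mouse (columns) from the 12-mouse mean of each gene (rows) on the log2(normalized count + 1) scale, blue for lower and red for higher, with lines between genotypes and between families. The darkest blue cells are those of Tenm1, Tenm2 and Tenm4 in WT replicate 1, and the Tenm3 row is blue in the 4 WT mice.

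**Figure D4:**
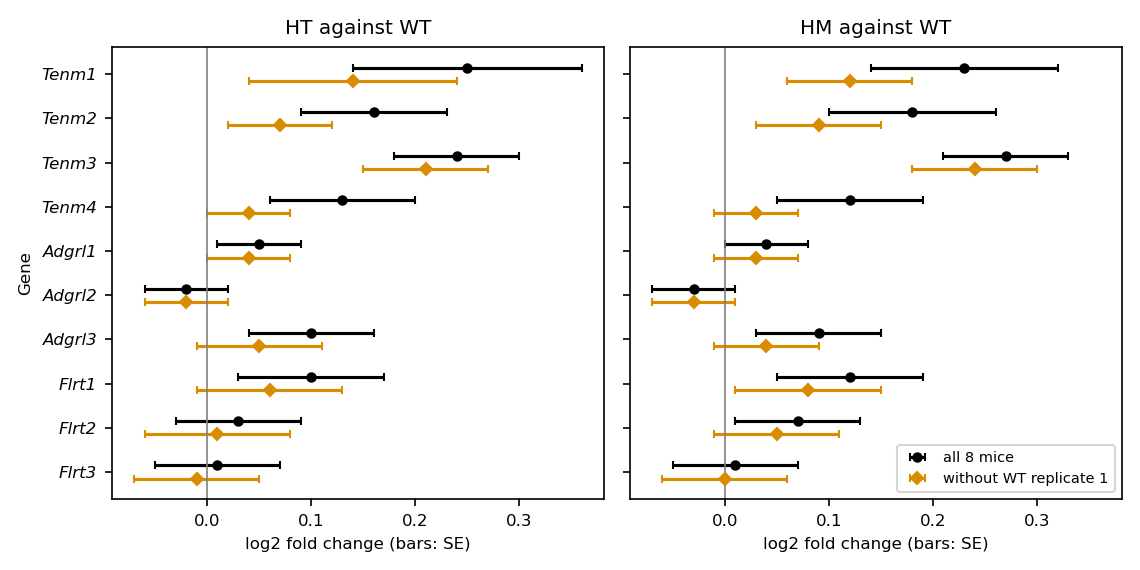
Log2 fold changes of the 10 genes in HT (left) and HM (right) mice against WT, with bars for the SE, for all 8 mice and without WT replicate 1. Without this mouse Tenm3 stays at 0.21 and 0.24, and Tenm4 moves from 0.13 to 0.04 and from 0.12 to 0.03.

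Latrophilins, the receptors of the set, had log2 fold changes from WT of at most 0.10. Adgrl1, which encodes latrophilin-1, had 21930.2, 23894.7, 21343.8 and 22331.2 normalized counts in WT mice, 22993.5, 22969.2, 23369.2 and 23470.5 in HT mice and 22364.6, 24024.3, 23194.2 and 22182.6 in HM mice. Adgrl2, a latrophilin known for the placement of synapses in the hippocampus, had 3623.9, 3746.0, 3486.4 and 3639.7 in WT mice, 3492.1, 3616.5, 3443.9 and 3718.5 in HT mice and 3390.2, 3479.6, 3738.5 and 3626.5 in HM mice. Adgrl3, which binds FLRT3 and has been linked to attention-deficit/hyperactivity disorder, had 2873.1, 3434.1, 3347.7 and 3135.2 in WT mice, 3282.8, 3183.1, 3639.4 and 3629.8 in HT mice and 3343.8, 3154.3, 3538.2 and 3580.4 in HM mice. The genotypes overlapped for all 3 receptors. Adgrl2 was the only member with a lower mean in both mutants, at 98.4% of WT in HT and 98.2% in HM mice, with log2 fold changes of -0.02 (SE 0.04) and -0.03 (SE 0.04). The log2 fold changes of Adgrl1 were 0.05 (SE 0.04) and 0.04 (SE 0.04), and those of Adgrl3 0.10 (SE 0.06) and 0.09 (SE 0.06).

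FLRT genes, the second group of latrophilin ligands, also overlapped between genotypes. Flrt1 ranged from 922.5 to 1088.6 normalized counts in WT, from 973.1 to 1140.5 in HT and from 1008.5 to 1160.5 in HM mice. Flrt2 had 2004.2, 2265.3, 2201.7 and 1892.4 in WT mice, 2217.9, 2210.0, 1966.6 and 2139.7 in HT mice and 2204.1, 2246.4, 2136.1 and 2173.1 in HM mice. Flrt3, the best studied partner of Adgrl3, ranged from 808.6 to 918.1 in WT, from 837.8 to 877.0 in HT and from 846.1 to 882.7 in HM mice. Flrt3 was the steadiest of the ligands, since its mutant means were 100.7% and 100.9% of the WT mean. The log2 fold changes were 0.10 (SE 0.07) in HT and 0.12 (SE 0.07) in HM mice for Flrt1, 0.03 (SE 0.06) and 0.07 (SE 0.06) for Flrt2, and 0.01 (SE 0.06) in both for Flrt3. When each mouse was left out, that of Flrt2 in HT mice ran from -0.02 to 0.07, and that of Flrt3 from -0.01 to 0.05 in both.

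Across the set, 9 of 10 members had a higher mean log2 value in HT than in WT mice and 9 of 10 in HM than in WT mice, against 50% and 49.8% of all genes tested. The median log2 fold change of the members was 0.10 in each, against 0 over all genes. Without WT replicate 1 the median was 0.05 in each and 8 members were higher. The 2 contrasts share the 4 WT mice and are not independent of each other. With limma and Benjamini-Hochberg adjustment, 0 members passed an adjusted p of 0.05 in HT against WT, where 0.00555% of 18004 genes did, and 0 in HM against WT, where 0.0111% did. At an unadjusted p under 0.05 there were 2 members in HT (Tenm1 and Tenm3) beside 6.42% of all genes, and 3 in HM (Tenm1, Tenm2 and Tenm3) beside 6.99%. In both contrasts 1 was left without WT replicate 1, Tenm3. Groups did not overlap for 1 member, Tenm3, in either contrast, beside 3.73% of genes in HT and 4.22% in HM mice. These contrasts were in view when the set was chosen, so the counts are given as a description.

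HM and HT mice, which differ in whether 1 intact copy of Slc6a20a remains, were compared next. In limma 0 of 10 members passed an adjusted p of 0.05, where 0.00556% of 17986 genes did, with an adjusted p of 1 for each. None had an unadjusted p under 0.05, where 3.74% of genes did, and none had groups that did not overlap, where 2.38% did. The median log2 fold change of the members was 0.00, and 5 were higher and 5 lower in HM mice. For Tenm3 it was 0.03 with a 95% confidence interval of -0.07 to 0.12. The interval was -0.21 to 0.17 for Tenm1, the widest, -0.08 to 0.12 for Tenm2 and -0.08 to 0.06 for Tenm4. It was -0.09 to 0.05 for Adgrl1, -0.09 to 0.09 for Adgrl2 and -0.13 to 0.11 for Adgrl3. For the FLRT genes it was -0.12 to 0.16 for Flrt1, -0.06 to 0.14 for Flrt2 and -0.10 to 0.10 for Flrt3. These intervals are not adjusted for the number of genes. With the start of the animal number as a block, Adgrl3 was 0.15, outside its interval, Tenm1 was -0.14, and most members changed sign. That fit rests on HM replicate 4 and HT replicates 1 and 2.

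**Figure D5:**
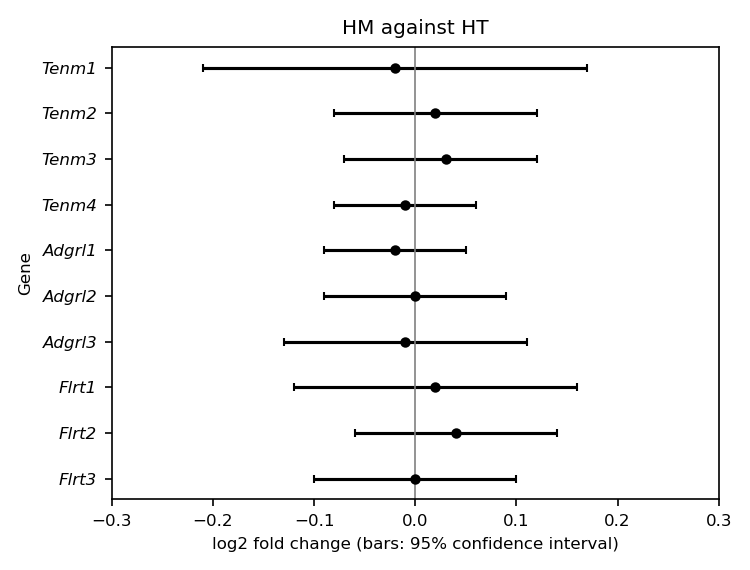
Log2 fold changes of the 10 genes in HM against HT mice, with bars for the 95% confidence interval from limma. The points lie between -0.02 and 0.04, and all 10 intervals include 0, that of Tenm1 being the widest.

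The share of a gene in its family overlapped between genotypes for 9 of the 10 genes. The exception was Flrt3, with 31.3% to 32.0% of the FLRT sum in WT and 29.5% to 31.1% in HM mice. The normalized counts of Flrt3 themselves overlapped, and no share over all genes was computed beside this count. Per kb, Adgrl1 gave 71.7% ± 0.66 of the latrophilin sum in WT mice, 72.0% ± 0.54 in HT mice and 71.9% ± 1.39 in HM mice (SD, n = 4). Flrt2 gave 43.3% ± 1.33, 42.9% ± 1.54 and 43.5% ± 0.61 of the FLRT sum. Tenm3 gave 27.6% ± 2.11 of the teneurin sum in WT mice, 28.7% ± 0.44 in HT mice and 29.1% ± 1.16 in HM mice, and Tenm4 33.2% ± 1.91, 31.9% ± 1.15 and 31.6% ± 0.49. These shares use the longest coding transcript. By the length of all exons joined, mean shares over 12 mice were 85.8% for Adgrl1, 43.7% for Flrt2, 32.3% for Tenm3 and 26.2% for Tenm4. The teneurin sum itself was 1206.1 ± 123.2 normalized counts per kb in WT mice, 1365.8 ± 41.7 in HT mice and 1372.0 ± 23.5 in HM mice. It was 1029.3, 1281.7, 1298.3 and 1215.2 in WT mice and at least 1311.6 in every mutant, so the groups did not overlap. This is a description that includes Tenm3, and no share over all genes was computed for such sums. Without WT replicate 1 the WT mean was 1265.1 ± 44.0 (n = 3). Latrophilin sums were 3811.8 ± 168.2, 3938.7 ± 72.0 and 3901.1 ± 96.3, and FLRT sums 679.8 ± 44.0, 699.6 ± 17.8 and 709.9 ± 21.4, both with overlapping genotypes.

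A list of 14 known partners and relatives was examined beside the members. It comprises the FLRT receptors Unc5a to Unc5d, Robo1 and Fgfr1, the genes Nrxn2, Nrxn3 and Cntn6 for further latrophilin ligands, the scaffolds Shank1 to Shank3, the teneurin-binding dystroglycan gene Dag1 and the endothelial relative Adgrl4. In limma 0 of 14 passed an adjusted p of 0.05 in any of the 3 contrasts, the lowest being 0.770 in HT against WT and 0.553 in HM against WT. At an unadjusted p under 0.05, 2 were higher in HT (Robo1 and Dag1), 3 in HM (these and Unc5b) and 0 in HM against HT, and none was lower, beside the 6.42%, 6.99% and 3.74% of all genes given above. Groups did not overlap for 0 partners in HT and 2 in HM against WT (Robo1 and Dag1), and for 1 in HM against HT (Shank3), beside 3.73%, 4.22% and 2.38% of all genes. Robo1, a guidance receptor that FLRT3 binds, averaged 1526.0 ± 80.4 normalized counts in WT mice, 1735.1 ± 170.6 in HT mice and 1835.3 ± 94.4 in HM mice (SD, n = 4). Its lowest HM mouse, at 1697.9, was above the highest WT mouse, at 1601.2, while HT mice overlapped WT, and it was among the genes that the study picked in HM mice. Dag1 averaged 3265.2 ± 162.2, 3543.8 ± 134.5 and 3534.4 ± 19.1, and its lowest HM mouse, at 3511.3, was above the highest WT mouse, at 3449.5, while HT mice overlapped WT. Unc5b, a netrin receptor, averaged 1064.6 ± 55.6, 1115.3 ± 87.8 and 1186.6 ± 37.1. Without WT replicate 1, 1 partner had an unadjusted p under 0.05 in HT against WT, Adgrl4 (lower), and 4 did in HM against WT, the former 3 and Nrxn2 (higher).

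Within genotypes most pairs of members had a positive correlation, less so without WT replicate 1. Over 45 pairs of members in 12 mice, with log2 values centred within genotype, Pearson's r ranged from -0.35 to 0.74. It was above 0 for 39 pairs. The median was 0.29, and 0.03 without WT replicate 1. The highest value, for Tenm2 and Tenm4, was 0.74 and became -0.24 without that mouse. The next were 0.71 for Tenm3 and Flrt2, and 0.70 for Flrt2 and Flrt3 and for Tenm2 and Flrt3. Without that mouse they were 0.68, 0.67 and 0.74. In permutations of mice within genotype, 0 pairs had an adjusted p under 0.05. These mice share one normalization, and no pair is given as a finding. Among 13125 genes with a mean of at least 100, those whose values followed Tenm3 most closely in the 12 mice were Cers6, a ceramide synthase gene (r = 0.93), and then Sltm, Gtf3c3, Slitrk5 and Rel (r = 0.91 each). Slitrk5 is itself a synaptic adhesion gene and Gtf3c3 encodes a subunit of the RNA polymerase III factor TFIIIC. Of the members, Flrt2 ranked 354th (r = 0.71) and Tenm1 434th (r = 0.69), and Adgrl1 had an r of -0.10.

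Means of some region marker lists also differed between genotypes, while WT and HM mice overlapped in summed counts. None of these lists was tested. The 8 olfactory bulb markers were all higher in HM mice, by 0.88 on average over WT and 1.22 over HT on the log2 scale. Their summed normalized counts were 707.3 to 1134.6 in WT, 663.6 to 870.5 in HT and 1072.6 to 1850.3 in HM mice, and some of these markers were among the genes that the study picked in HM mice. None was at 0 in any mouse. In HT mice 1 of the 8 was higher than in WT, and the list was lower by 0.34 on average. Hippocampal markers were higher in HM than WT by 0.22 (5 of 6 markers), with summed counts of 2601.7 to 2888.7 in WT and 2845.6 to 3188.4 in HM mice. Choroid plexus markers were lower in HM than in WT mice by 0.47 (5 of 5 markers), with summed counts of 15064.5 to 19538.5 in WT and 9681.5 to 17666.3 in HM mice. Erythrocyte markers summed to 7779.8 to 21983.5 in WT, 6495.0 to 8716.8 in HT and 5858.5 to 29022.5 in HM mice. Neuronal markers were higher than in WT by 0.04 in HT and 0.05 in HM mice, and the lists for other cell types and regions differed between genotypes by at most 0.17. The part of region sampling in the values of the members was not tested.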

How the data were processed

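Paired-end libraries from the TruSeq kit were quantified by the authors with Salmon 1.1.0 against GRCm38 with GC correction, imported with tximport and scaled with DESeq2 1.30.1, per the labels and the methods of the study. The deposited table holds this normalized count signal for 19775 genes in 12 mice. Reads before scaling could not be recovered, so no count model was fitted. GENCODE M21 held 19758 of the gene identifiers, and 17 were not found. Promoters came from RefSeq.

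After adding a pseudocount of 1 and taking log2, each pair of genotypes (8 mice) was fitted in R 4.3.3 with limma 3.58.1, using a mean-dependent variance prior. Genes averaging under 10 were left out, and Benjamini-Hochberg adjustment at 0.05 ran over all the rest. Fold changes are on that scale and understate those of low genes. The script was tested on simulated data. The members, partners and marker lists were chosen with earlier results of these data known. All 10 members are named, with partners at an unadjusted p under 0.05 and the 5 genes most correlated with Tenm3. All 10 members passed the filter on low values. Labels give mice as separate animals, 4 per genotype. Alternatives were another pseudocount, normalization, filter, variance prior, blocks and leaving out each mouse. Some items are not reported here.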

Additional observations from a re-analysis of the deposited data

How the results depend on the processing

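Counts of members and partners with an adjusted p under 0.05 were 0 under every alternative run. Members with an unadjusted p under 0.05 in HT against WT were 2, and 1 with a pseudocount of 0.1, with quantile normalization, with a variance prior without a trend and with a block for the start of the animal number, and 1 to 4 when each mouse was left out (4 without WT replicate 2, 1 without WT replicate 1, HT replicate 1 or HT replicate 4). In HM against WT there were 3, and 1 without the trend, 4 with the animal-number block (Tenm1, Tenm3, Tenm4 and Adgrl3), and 1 to 4 when each mouse was left out (1 without WT replicate 1, HM replicate 2 or HM replicate 4). In HM against HT there were 0, and 1 (Adgrl3) with the animal-number block, which rests on HM replicate 4 and HT replicates 1 and 2. Partner genes with an unadjusted p under 0.05 in HT against WT were 2, and 0 with the animal-number block or without the trend, and 0 to 5 when each mouse was left out (0 without HT replicate 4, 5 without WT replicate 2, 1 without WT replicate 1 or 4 or HT replicate 1, 2 or 3). In HM against WT there were 3, and 5 without WT replicate 2 and 4 without WT replicate 1 or 3. With the animal-number block there were also 3, but these were Robo1, Nrxn3 and Adgrl4 (lower). In HM against HT there were 0, and 1 with the animal-number block (Nrxn2), without HT replicate 1 (Unc5b) and without HT replicate 2 (Shank3).

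With the animal-number block the log2 fold changes of HM against HT changed sign, to -0.02 for Tenm2, 0.04 for Tenm4, 0.03 for Adgrl2, 0.15 for Adgrl3, -0.05 for Flrt1, -0.03 for Flrt2 and -0.02 for Flrt3, and that of Flrt3 was 0.00 with quantile normalization. When each mouse was left out they ran from -0.11 to 0.05 for Tenm1, -0.02 to 0.05 for Tenm2, -0.02 to 0.01 for Tenm4, -0.03 to 0.02 for Adgrl2, -0.05 to 0.02 for Adgrl3, -0.03 to 0.05 for Flrt1 and -0.01 to 0.01 for Flrt3. The cause was not tested. Tenm3 ran from 0.21 to 0.29 in HT and from 0.24 to 0.32 in HM against WT, and was 0.20 and 0.34 with the animal-number block. In the fit with this block, HM values against WT rest on WT replicates 1 and 2 and HM replicates 3 and 4. WT replicate 1 does not enter the HT values against WT. That block moved the HT values to 0.09 for Tenm1, 0.06 for Tenm2, 0.05 for Tenm4 and 0.06 for Adgrl3, and the HM values to 0.33 for Tenm1, 0.16 for Tenm2, 0.23 for Tenm4 and 0.18 for Adgrl3, and Adgrl1 in HM and Flrt2 in HT to -0.01 each, Flrt3 to -0.02 in HT and -0.03 in HM, and Flrt1 to 0.06 in HT and 0.03 in HM mice.

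Same-numbered mice correlated at -0.066 to 0.087. These values show no pairing by number across genes, and they cannot exclude a pairing with little effect on expression. A replicate block gave 3, 2 and 0 members with an unadjusted p under 0.05 in the 3 contrasts, and 0 with an adjusted p.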
